A study of Rattus norvegicus with 12 samples.

Results

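The renal cortex of the 6 vehicle rats, out of 12 rats in the series, is described here gene by gene, by how strongly each named gene was measured. All 12 were male Sprague-Dawley (Crl:CD(SD)) rats bought at 5 weeks of age and dosed for 4 weeks, and were killed 24 h after the last dose. The vehicle rats received water, and they formed 2 groups of 3 by the agent used at kill: isoflurane in the first and a CO2-O2 mixture (4 to 1) in the second. The other 6 rats received tert-butyl alcohol at 1000 mg/kg/day, again 3 under each agent, and enter only the estimate of spread in the test of the anesthetic. Each rat gave 1 Agilent one-colour array of cortical RNA. The labels give no strain difference, genetic change or pooling of animals. The members are the 6 vehicle arrays, and on them the 11173 gene symbols, of 15284 with a probe, that had a probe well above background in every rat.

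The renal cortex holds glomeruli, where plasma is filtered, and the tubule segments that work on the filtrate. The proximal tubule reabsorbs most of the glucose, amino acids, phosphate and bicarbonate, secretes organic anions and cations, makes glucose and ammonia, and is packed with mitochondria that oxidise fatty acids. The thick ascending limb and the distal convoluted tubule reabsorb salt without water, and the connecting tubule and collecting duct set the final sodium, potassium, acid and water excretion under hormonal control.

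Signal is given as the log2 processed signal minus the array's 75th percentile, so 0 is that percentile of the probes of an array and 1 unit is a doubling. Leaving out controls, 37400 of 61657 probes (60.7%) stood well above background in all 6 rats, 8119 in 1 to 5 of them and 16138 in none. Only 19190 of the 37400 carry a gene symbol, and 59 of the 100 brightest probes have none, so the account covers the named portion of the array. Named genes spanned 14.7 log2 units, between -5.52 and 9.23. Each gene is represented by its brightest detected probe. Among the 5673 genes with 2 or more detected probes, the brightest and dimmest differed by a median of 2.11 log2 units, against a median SD of 0.111 between rats under the same agent. A rank is therefore a rank of signal, set partly by the probe, and not of RNA copies. The 6 rats ordered the genes in nearly the same way. Across genes, which are not independent replicates, Spearman's rho was 0.993 to 0.996 in the 6 pairs of rats under the same agent and 0.990 to 0.994 in the 9 pairs under different agents.

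Promoters of 4 genes of high signal are shown because their genes had high signal and their base composition differs. They run 250 bases before to 50 bases after the start in RefSeq (GRCr8), 5′ to 3′ along the gene. Capitals mark TATAAA (the TATA box), GTTAAT (a core site of HNF1, a proximal tubule and liver factor) or GGGCGG (a GC box), each searched on both strands, so that ATTAAC and CCGCCC are their reverse complements. No match overlaps another in the 4 promoters shown. Miox (chr7:122284410-122284709, plus strand) encodes the renal enzyme that breaks down myo-inositol. Slc34a1 (chr17:9238934-9239233, minus strand) encodes the main phosphate carrier of the proximal brush border. Umod (chr1:183260967-183261266, minus strand) encodes uromodulin, the secreted protein of the thick ascending limb. Slc13a3 (chr3:174623844-174624143, minus strand) encodes a dicarboxylate carrier of the basolateral membrane.
Miox: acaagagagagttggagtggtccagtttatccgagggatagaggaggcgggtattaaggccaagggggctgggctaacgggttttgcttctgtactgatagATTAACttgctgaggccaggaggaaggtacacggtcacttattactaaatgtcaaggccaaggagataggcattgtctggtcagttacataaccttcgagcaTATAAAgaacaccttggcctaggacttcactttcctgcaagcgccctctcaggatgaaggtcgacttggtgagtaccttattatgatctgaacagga
Slc34a1: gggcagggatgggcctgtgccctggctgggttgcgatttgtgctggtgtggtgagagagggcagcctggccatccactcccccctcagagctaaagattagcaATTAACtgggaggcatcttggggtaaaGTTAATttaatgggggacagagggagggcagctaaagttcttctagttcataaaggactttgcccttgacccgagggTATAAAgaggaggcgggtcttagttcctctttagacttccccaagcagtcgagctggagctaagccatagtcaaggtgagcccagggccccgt
Umod: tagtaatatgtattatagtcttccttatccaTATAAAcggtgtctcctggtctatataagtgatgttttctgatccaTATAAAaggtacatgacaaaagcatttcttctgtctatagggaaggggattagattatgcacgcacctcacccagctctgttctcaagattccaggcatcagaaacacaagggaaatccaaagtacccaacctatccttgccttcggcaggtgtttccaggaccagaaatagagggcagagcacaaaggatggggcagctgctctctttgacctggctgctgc
Slc13a3: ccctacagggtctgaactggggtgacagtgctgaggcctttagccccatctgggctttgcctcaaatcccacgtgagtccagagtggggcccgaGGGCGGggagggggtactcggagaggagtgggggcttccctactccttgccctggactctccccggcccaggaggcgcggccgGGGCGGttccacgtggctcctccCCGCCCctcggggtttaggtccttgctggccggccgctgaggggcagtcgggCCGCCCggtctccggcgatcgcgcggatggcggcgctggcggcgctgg
Miox and Slc34a1 each held a TATAAA, at -47 and at -43 from the start, and GTTAAT, once at -149 in Miox and at -147 and -120 in Slc34a1. Umod held TATAAA at -219 and -173 and Slc13a3 held GGGCGG 4 times. The 4 promoters held 7 CpG in Miox, 5 in Slc34a1, 3 in Umod and 26 in Slc13a3.

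The composition of promoters differed between groups of detected genes as a description, with no test. RefSeq gave a promoter for 9145 of the 11173 detected genes. TATAAA stood in 8.17% of them, GTTAAT in 4.98% and GGGCGG in 58.6%, with a median of 20 CpG. Over all 27457 promoters in the table, detected or not, the shares were 14.3%, 7.37% and 34.9%, with a median of 7 CpG. Of the 17 proximal S1 and S2 markers with a promoter, 4 held TATAAA, 3 held GTTAAT and 3 held GGGCGG, with a median of 6 CpG. Of 27 oxidative phosphorylation genes, none held TATAAA or GTTAAT and 10 held GGGCGG, with a median of 21 CpG.

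The highest signals belonged to enzymes of proximal metabolism, iron storage proteins, a secreted protein of the thick limb and ribosomal and mitochondrial proteins. Miox led with 9.15, 9.20 and 9.22 in the isoflurane rats and 9.29, 9.21 and 9.29 in the CO2-O2 rats. Fbp1, fructose-1,6-bisphosphatase of gluconeogenesis, had 9.13, 9.20 and 9.11 in the isoflurane rats and 9.14, 9.15 and 9.15 in the CO2-O2 rats. Kap, the kidney androgen-regulated protein, averaged 9.19 ± 0.14 (SD, n = 6). Fbp1 varied less between rats than Kap did. The ferritin chains Ftl1 (8.95 ± 0.08) and Fth1 (8.92 ± 0.08), which store iron, stood beside Umod (8.93 ± 0.24). Rpl41 (8.85, n = 5, since 1 CO2-O2 spot carried an outlier flag), Rplp1 (8.46) and Rplp0 (8.43) are ribosomal proteins. Atp5f1a (8.79) and Cox6a1 (8.52) belong to ATP synthase and cytochrome c oxidase.

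The rest of the 20 were of mixed function. Mt1, the metal-binding metallothionein, averaged 8.66 ± 0.08, Ctsb, a lysosomal protease, 8.63 ± 0.03, and Cyp4a2, a fatty acid hydroxylase, 8.59 ± 0.08. Slc13a3 averaged 8.53 (n = 5, with the flagged spot of 1 CO2-O2 rat left out). Ceacam9 (8.62), Chchd2l3 (8.50), the prolyl isomerase Ppia (8.49) and the ubiquitin gene Ubb (8.46) were also among the 20. Ferritin, ribosomal protein and Ppia genes have near-identical copies in the genome, and which copies a probe binds was not tested. The 20 genes held 7.76% to 8.16% of the summed signal of all detected genes over the 6 arrays, and 362 to 379 genes held 50% of it. The 500 highest genes held 55.9% to 56.8% and the 1000 highest 70.7% to 71.4%. Among the 100 highest, 19 were Rpl or Rps genes, 9 came from the oxidative phosphorylation list, 7 from the antioxidant list, which counts Miox, and 6 from the list of drug metabolism, 3 of them Cyp4a genes.

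**Figure D1:**
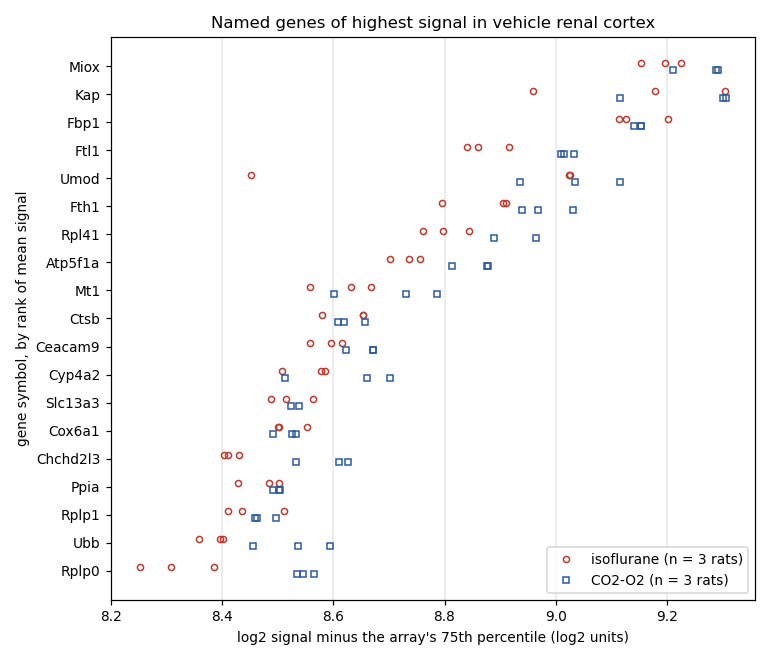
Signal of 19 of the 20 named genes of highest mean signal in each vehicle rat (log2 processed signal minus the array's 75th percentile; circles, isoflurane rats; squares, CO2-O2 rats; 3 each, or 2 CO2-O2 rats for Rpl41 and Slc13a3). All points lie above 8.2, and Umod has 1 isoflurane rat at 8.45 away from the other 5.

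Markers of the S1 and S2 segments of the proximal tubule had high signal as a group. All 18 were detected in every rat, 13 of them lay in the top 10% of named genes, and their median was 5.48, at percentile 95.4. Slc3a1, the heavy chain of the cystine and dibasic amino acid carrier, averaged 8.28 ± 0.21. Slc22a6, the organic anion transporter OAT1, averaged 8.04 ± 0.11. Slc34a1 had 7.98, 8.02 and 7.95 in the isoflurane rats and 7.96, 8.02 and 7.91 in the CO2-O2 rats, and the groups overlapped. The endocytic receptors Lrp2 (megalin, 6.31 ± 0.13) and Cubn (cubilin, 5.39 ± 0.10) and the glucose carrier Slc5a2 (SGLT2, 7.17 ± 0.09) were named after their values were seen. The lowest of the list were Slc5a12, a lactate carrier, at 1.59 ± 0.18, and Cyp27b1, the enzyme that activates vitamin D, at -1.61 ± 0.67. Cyp27b1 was the marker of the list that varied most between rats, with -1.17, -1.19 and -1.04 in the isoflurane rats and -2.53, -1.32 and -2.40 in the CO2-O2 rats. In the limma fit described below its difference was 0.95 ± 0.36 (SE), with an adjusted p of 0.208.

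Markers of the S3 segment, which lies in the outer stripe and the medullary rays, were split. All 10 were detected, with a median of 2.59 (percentile 75.5), 2 in the top 10% and 4 below percentile 50. Slc7a13, a cystine and aspartate carrier, had 5.78, 6.28 and 6.68 in the isoflurane rats and 7.74, 7.35 and 7.55 in the CO2-O2 rats. The 2 sets of values did not overlap. Slc6a18, a neutral amino acid carrier of the S3 brush border, averaged 4.81 ± 0.28, and Slc13a1, the sulfate carrier, 4.12 ± 0.12. Acsm3, a medium-chain acyl-CoA synthetase, had 2.56, 4.12 and 4.18 in the isoflurane rats and 3.38, 4.29 and 4.22 in the CO2-O2 rats, so that 1 rat of each group was lower than its group mates. The list ended with Slc5a1, the glucose carrier SGLT1, at -2.16 ± 0.42, and Slc22a13, a urate and nicotinate carrier, at -2.81 ± 0.22.

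Markers of the thin limbs and inner medulla were low. All 8 were detected, but 7 lay below percentile 50 and none in the top 10%, with a median of -1.08 (percentile 32.2). Slc14a2, the urea transporter of the inner medullary collecting duct, averaged -3.28 ± 0.09 and Epha7, an ephrin receptor, -3.75 ± 0.23. The highest was Slc5a3, the myo-inositol carrier of cells facing high salt, at percentile 75.8.

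The thick ascending limb, part of which runs in the cortex, combined Umod, among the highest of all named genes, with several low ones. Of 10 markers with a probe, all were detected, with a median of 2.72 (percentile 77.2) and 3 in the top 10%. Umod had 8.45, 9.02 and 9.03 in the isoflurane rats and 9.12, 9.04 and 8.94 in the CO2-O2 rats. Isoflurane rat 1 stood apart from the other 5. It was also the lowest of the 6 for Egf, the epidermal growth factor precursor (4.85, 5.18 and 5.43 in the isoflurane rats and 5.31, 5.38 and 5.18 in the CO2-O2 rats), and for Casr, the calcium-sensing receptor (3.58, 4.10 and 4.21 in the isoflurane rats and 4.20, 4.24 and 3.94 in the CO2-O2 rats). Cldn16, a tight-junction protein for magnesium and calcium, averaged -0.27 ± 0.22 and Ptger3, a prostaglandin receptor, -1.97 ± 0.15.

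Markers of the macula densa were at the limit of detection. Nos1, the neuronal nitric oxide synthase of the macula densa, and Akr1b7 were above background in none of the 6 rats, and Ptgs2, cyclooxygenase 2, in 5. These are markers of a small number of cells, and a probe that is not well above background gives only an upper bound.

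The distal convoluted tubule was represented by Slc12a3, the thiazide-sensitive sodium chloride cotransporter, at 3.70, 3.82 and 4.04 in the isoflurane rats and 3.86, 4.01 and 4.26 in the CO2-O2 rats. Of 8 markers with a probe 6 were detected, with a median of 4.31 (percentile 89.97), against percentile 63.5 with the dimmest probe of each gene. Fxyd2, the gamma subunit of the sodium pump, averaged 7.23 ± 0.06. Wnk1 averaged 4.84 ± 0.20 and Wnk4, like Wnk1 a kinase that controls the cotransporter, 0.55 ± 0.21. Kcnj16, a basolateral potassium channel, averaged 4.67 ± 0.18 and Cnnm2, which takes part in magnesium handling, 0.37 ± 0.21. Pvalb, parvalbumin, was above background in no rat. Fxyd2 and Wnk1 are also expressed in other segments, and their share from this one was not tested.

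The connecting tubule list had a median of 2.16 (percentile 71.1) over the 6 of 7 markers that were detected. Klk1, tissue kallikrein, averaged 6.95 ± 0.24 and Atp2b1, a plasma membrane calcium pump, 3.48 ± 0.07. The calcium-binding proteins Calb1 (calbindin-D28k) and S100g (calbindin-D9k) averaged 2.57 ± 0.31 and 1.76 ± 0.26. The lowest were the sodium calcium exchanger Slc8a1 (-1.29 ± 0.37) and the apical calcium channel Trpv5 (-2.33 ± 0.32). Klk1 and Atp2b1 lay at percentiles 98.5 and 84.5, and Slc8a1 and Trpv5 at 30.1 and 20.1.

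Principal cells of the collecting duct showed a wide range, with 11 of 11 markers detected, a median of 0.43 (percentile 50.1) and 3 in the top 10%. Aqp2, the vasopressin-regulated water channel, had 6.38, 6.57 and 6.84 in the isoflurane rats and 6.52, 6.56 and 6.52 in the CO2-O2 rats. Hsd11b2, which protects the mineralocorticoid receptor from glucocorticoid, averaged 5.70 ± 0.11, and Aqp3, the basolateral water channel, 5.04 ± 0.27. Scnn1b, the beta subunit of the epithelial sodium channel, averaged 3.94 ± 0.16. The transcription factors Gata3 (-0.50 ± 0.09) and Elf5 (-2.71 ± 0.35) closed the list.

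Intercalated cells, which secrete acid or bicarbonate, had 12 of 12 markers detected and a median of 2.75 (percentile 77.6). Atp6v1g3, a subunit of the proton pump, had 6.24, 6.23 and 6.21 in the isoflurane rats and 5.99, 6.34 and 6.21 in the CO2-O2 rats. Slc26a4, pendrin, the apical exchanger of bicarbonate-secreting cells, had 5.63, 5.63 and 5.62 in the isoflurane rats and 5.22, 5.55 and 5.56 in the CO2-O2 rats. CO2-O2 rat 1 was the lowest of the 6 for both genes. Slc4a1, the basolateral exchanger of acid-secreting cells, averaged 3.01 ± 0.22, and Atp6v1b1, another pump subunit, 3.76 ± 0.08. Red cells also carry Slc4a1. Insrr, an alkali-sensing receptor, averaged -0.95 ± 0.34 and Aqp6, a water channel of intracellular vesicles, -2.81 ± 0.19.

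Glomerular and vascular markers were lower as lists. All 11 podocyte markers were detected, with a median of -0.13 (percentile 43.1) and 1 in the top 10%. Podxl, the sialoprotein of the foot process surface, averaged 4.42 ± 0.21 and is shared with endothelium. Cdkn1c, a cell cycle inhibitor, averaged 3.02 ± 0.24 and Ptpro, a receptor phosphatase, 2.56 ± 0.10. Synpo, the actin-binding synaptopodin, averaged -2.89 ± 0.09 and Magi2, a scaffold of the slit diaphragm, -4.90 ± 0.15, close to the lowest signal of any named gene. In the endothelial list Plvap, of fenestral diaphragms, averaged 5.59 ± 0.18 and Kdr, a VEGF receptor, 4.48 ± 0.16, while Tek (-2.50 ± 0.26) and Ehd3 (-2.70 ± 0.50) were lowest. The fibroblast list had a median at percentile 74.7, with the collagen gene Col1a2 at 3.97 ± 0.30 and the proteoglycan gene Dcn at 3.16 ± 0.50. In whole cortex, fewer cells of a type and less RNA per cell cannot be told apart.

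**Figure D2:**
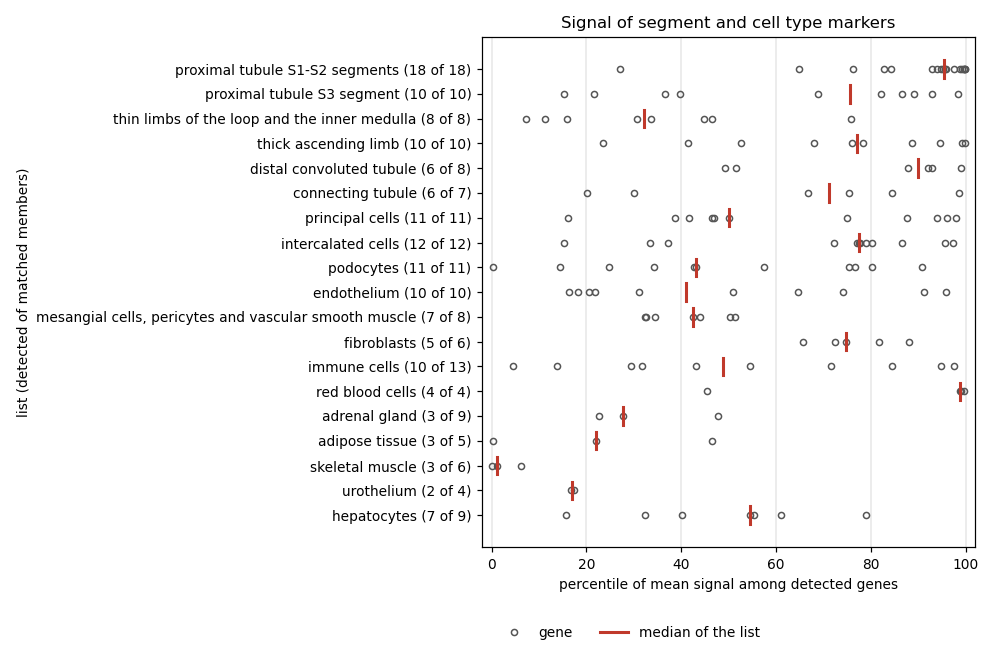
Percentile of mean signal among the 11173 detected named genes, for markers of nephron segments, other cells and other tissues (circles, genes; red bars, list medians; n = 6 rats; numbers give detected of matched members). Proximal S1 and S2 markers have a median at 95.4, thin limb markers at 32.2 and podocyte markers at 43.1.

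Respiratory chain and ribosomal genes filled the upper end of the range. Of 30 oxidative phosphorylation genes all were detected and 29 lay in the top 10%, with a median of 6.64 (percentile 98.1). Atp5f1a and Cox6a1 were given above, Cox8a averaged 8.09 ± 0.09 and Atp5po, a stalk subunit of ATP synthase, 7.81 ± 0.05. The exception was Uqcrq, a subunit of complex III, at -0.57 ± 0.24 from its only detected probe. Genes of the mitochondrial genome had no matched probe. Cytosolic ribosomal proteins had 22 of 22 members in the top 10% (percentile 98.5 at the median).

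Gluconeogenesis and fructose use had a median of 7.28 (percentile 98.9), the highest of the functional lists with the brightest probe of each gene; with the dimmest probe it was at 97.8, below oxidative phosphorylation at 98.7. Beside Fbp1, Khk, ketohexokinase, had 7.75, 7.77 and 7.84 in the isoflurane rats and 8.12, 8.05 and 8.11 in the CO2-O2 rats, which did not overlap. Pc, pyruvate carboxylase, averaged 7.58 ± 0.06. Pck1, the cytosolic enzyme that commits oxaloacetate to glucose, had 7.78, 7.76 and 7.60 in the isoflurane rats and 7.35, 7.57 and 7.38 in the CO2-O2 rats. Its mitochondrial counterpart Pck2 and the fructose carrier Slc2a5 lay at 2.28 and 2.72, the lowest of the 10. Glycolysis was mixed, with a median of 2.61 (percentile 76.1). Eno1, enolase, averaged 7.59 ± 0.08, while Hk2, hexokinase 2, averaged -4.56 ± 0.50 and was the lowest of the 16 genes.

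Fatty acid oxidation had a median of 4.69 (percentile 92.2) over the 24 of 25 genes detected in every rat. Hadh, the short-chain dehydrogenase of the mitochondrial cycle, averaged 7.28 ± 0.10 and Scp2, a peroxisomal thiolase and sterol carrier, 7.25 ± 0.09. Acadm and Acadl, which start the breakdown of medium and long chains, averaged 6.38 ± 0.09 and 6.32 ± 0.12. All 24 lay above percentile 75. In the citric acid cycle 10 of 12 genes were in the top 10%, led by Idh2 (7.37 ± 0.08), the mitochondrial NADP-dependent isocitrate dehydrogenase, and Suclg1 (7.19 ± 0.05), a subunit of succinyl-CoA ligase. Among 7 genes of glutamine use and ammonia production Glud1, glutamate dehydrogenase, averaged 6.16 ± 0.17. Slc38a3, the basolateral glutamine carrier, was the lowest, with -0.98, -0.84 and -0.07 in the isoflurane rats and 0.50, 0.20 and 0.36 in the CO2-O2 rats, which did not overlap.

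Transport and uptake genes followed. Of the sodium, water and acid-base genes 6 of 11 were in the top 10%, among them Atp1b1 (8.26 ± 0.14), the beta subunit of the sodium pump, and Aqp1 (6.67 ± 0.18), the constitutive water channel. Slc26a1, a sulfate and oxalate exchanger, averaged 5.78 ± 0.13. Slc9a3, the sodium proton exchanger NHE3, was the lowest, at 0.82 ± 0.12 with its brightest and -3.20 with its dimmest of 3 detected probes. Organic ion transporters had a median of 2.37. The cation carrier Slc22a2 had 4.54, 4.91 and 5.08 in the isoflurane rats and 5.68, 5.53 and 5.70 in the CO2-O2 rats. The efflux pump Abcb1a was lowest at -4.02 ± 0.54. Pth1r, the parathyroid hormone receptor, led the phosphate list at 4.30 ± 0.08, and Slc20a2, a ubiquitous phosphate carrier, averaged 3.15 ± 0.14. The vitamin D receptor Vdr averaged -0.04 ± 0.18 and the phosphate exporter Xpr1 -1.13 ± 0.31. Of 12 amino acid transporters outside the segment lists 9 were detected in every rat, with a median of 1.46 (percentile 63.4) and 2 in the top 10%. Slc36a2 was above background in no rat.

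Uptake of filtered protein was represented, beside Ctsb, by Lrpap1, the chaperone of megalin (5.19), Dab2, its adaptor (4.71), and at the low end Ctns, the lysosomal cystine exporter (-3.17).

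Enzymes that handle foreign compounds and peroxides were high as well. All 21 drug metabolism genes were detected, 14 in the top 10% and none below percentile 50. The epoxygenase Cyp2c23 averaged 8.29 ± 0.03, the fatty acid hydroxylase Cyp4a8 8.28 ± 0.18 and the glutathione transferase Gsta1 7.77 ± 0.09. Cyp4a and Gsta genes have close paralogs, and cross-binding of their probes was not tested. The antioxidant list had 13 of 19 genes in the top 10%. Gpx1 and Gpx3, the cellular and the plasma glutathione peroxidase, averaged 7.90 ± 0.13 and 7.83 ± 0.16, and Sod1, cytosolic superoxide dismutase, 7.86 ± 0.14. The inducible genes Hmox1, heme oxygenase 1 (-1.38 ± 0.49), and Nqo1, a quinone reductase (-1.83 ± 0.22), were the lowest of the 19.

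In the renin-angiotensin and peptidase list Dpp4 and Enpep were in the top 10% of named genes. Ace was the lowest of the 9 members detected in every rat. Dpp4, which cleaves incretins, averaged 6.03 ± 0.12 and Enpep, aminopeptidase A, 4.53 ± 0.10. Mme, neprilysin, had 3.21, 3.47 and 3.89 in the isoflurane rats and 4.55, 4.54 and 4.42 in the CO2-O2 rats. Ace, angiotensin-converting enzyme, had -1.89, -1.04 and -1.27 in the isoflurane rats and -0.49, -0.65 and -0.73 in the CO2-O2 rats. The groups overlapped for neither Mme nor Ace. Agtr2, the angiotensin type 2 receptor, was above background in no rat.

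Transcription factors had lower signal as a list. The 27 detected transcription factors had a median of 0.22 (percentile 47.4). Esrra, a receptor that drives mitochondrial genes, averaged 4.96 ± 0.08, Tfcp2l1, a factor of distal segments, 4.76 ± 0.06, and Nr1h4, the bile acid receptor FXR, 4.73 ± 0.21. The developmental factor Tfap2b averaged 2.55 ± 0.31. Esrrg, a relative of Esrra, averaged -3.79 ± 0.35 and Nr1i3, the constitutive androstane receptor, -4.65 ± 0.50. Both rest on 1 probe. Epo, erythropoietin, was above background in no rat. Injury markers were not uniformly low, since Clu, clusterin, averaged 3.11 ± 0.40 and Spp1, osteopontin, 3.00 ± 0.50. Havcr1, kidney injury molecule 1, averaged -4.47 ± 0.47. Lcn2, lipocalin 2, had -2.11, -1.82 and -1.62 in the isoflurane rats and -1.63, -4.97 and -1.72 in the CO2-O2 rats, with CO2-O2 rat 2 alone far below.

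**Figure D3:**
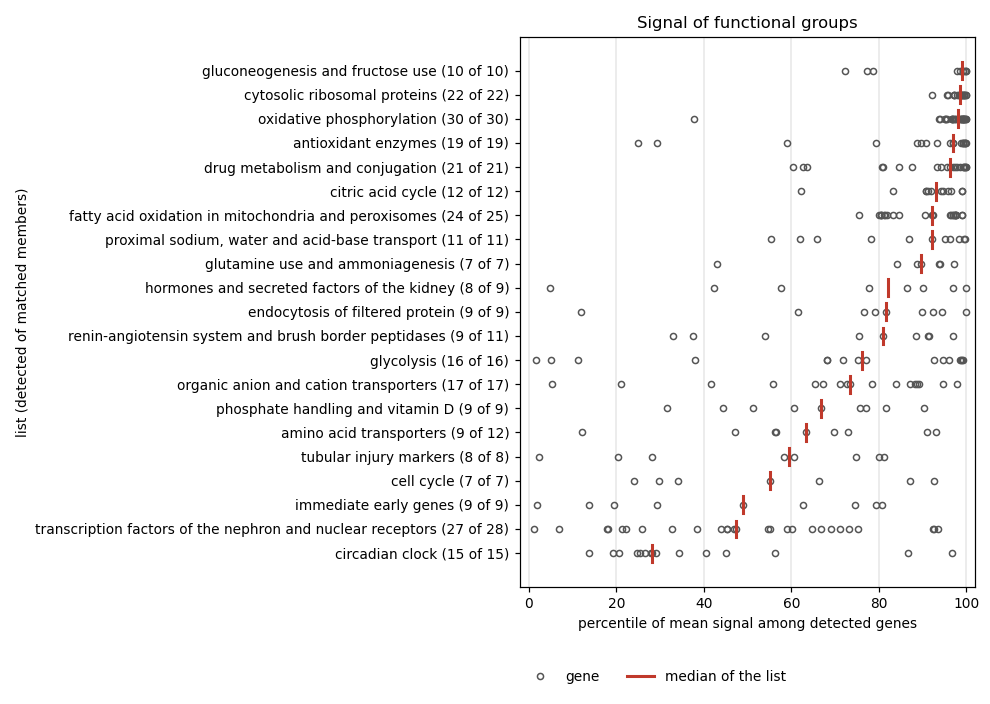
Percentile of mean signal among detected named genes for functional groups, ordered by list median (circles, genes; red bars, list medians; n = 6 rats). Gluconeogenesis, ribosomal protein and oxidative phosphorylation lists have medians of 98.9, 98.5 and 98.1, and the clock list one of 28.0.

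Adrenal, muscle, fat and urothelial markers were mostly low, liver markers were mixed, and blood was present. Of 9 adrenal markers Cyp11b1, Cyp11b2, Star and Chga were above background in no rat and 3 were detected in all, with Th at 0.25 ± 0.15 and Cyp21a1 at -1.53 ± 0.44; their summed signal was 1.61 to 1.89 times the 75th percentile over the 6 rats. In skeletal muscle Myh1 and Myh2 were above background in no rat and Ckm, muscle creatine kinase, averaged -5.31 ± 0.44. Leptin (Lep) was above background in none, Adipoq, adiponectin, averaged 0.13 ± 0.17, and the urothelial genes Upk1a and Upk1b averaged -2.59 and -2.65. The liver list was higher, with 7 of 9 markers detected in all rats and a median of 0.76 (percentile 54.6). Apoc3 averaged 2.90 ± 0.18 and Alb, albumin, 1.28 ± 0.76. Of the detected liver markers 3 lay below percentile 50, and Cps1 and Tat were above background in no rat. Hba-a1, an alpha globin of red cells, had 7.75, 7.93 and 7.62 in the isoflurane rats and 8.22, 8.27 and 8.27 in the CO2-O2 rats, and Hbb averaged 7.21 ± 0.28. The myeloid genes Lyz2, lysozyme (6.33 ± 0.37), and Cd74, the invariant chain (5.31 ± 0.21), led the immune list. The Y-linked genes Eif2s3y and Ddx3y were detected in all 6 rats and no probe matched Xist. Of these other tissues, adrenal, muscle, fat and urothelial lists each kept some members above background in all 6 rats, all of them below percentile 50.

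Few genes differed strongly between rats kept and killed alike. Among 6151 genes with a mean signal above 0, 87.9% had an SD below 0.2 between rats under the same agent (pooled over both agents), 92 had one above 0.5 and 14 one above 1. The median SD was 0.254 in the 10% of detected genes with the lowest signal and 0.0692 in the 10% with the highest. The median range between probes of 1 gene was 0.33 in the lowest 10% and 2.46 in the highest. These classes are set by the brightest probe, and only detected probes count. Low classes thus leave little room for a range, and its rise with signal is partly fixed by this rule.

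**Figure D4:**
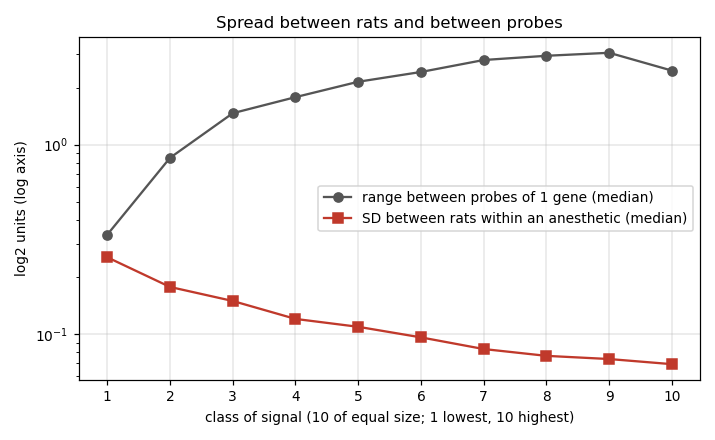
Median SD between rats under the same agent (red squares) and median range between the detected probes of 1 gene (grey circles) over 10 classes of signal of equal size; the vertical axis is logarithmic, in log2 units. The SD is 0.254 in the lowest class and 0.0692 in the highest, and the probe range lies above it in every class. The classes are set by the brightest detected probe, which bounds the probe range in the low classes.

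The 8 genes with the highest such SD and a mean above 0 ranged over 4.01 to 8.67 log2 units across the 6 rats, and 7 of them are described here. Gal, the neuropeptide galanin, had -4.69, 3.76 and 3.30 in the isoflurane rats and 3.17, -4.68 and 3.99 in the CO2-O2 rats. A second Gal probe was lowest in the same pair of rats, at -7.54 in isoflurane rat 1 and -6.75 in CO2-O2 rat 2. Kifc1, a mitotic kinesin, had 2.49, 2.31 and 2.64 in the isoflurane rats and 2.14, -2.12 and 2.66 in the CO2-O2 rats. Its other 2 probes were also lowest in CO2-O2 rat 2, at -3.41 and -4.93. Slpi, a leukocyte protease inhibitor, had 1.22, -4.81 and 0.33 in the isoflurane rats and 1.29, 1.74 and 2.92 in the CO2-O2 rats. For Gal, Kifc1 and Slpi, separate probes thus gave the low value in the same rats.

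For Cyp2c11, Cryga, Crygd and Ubd a single probe carried the pattern. Cyp2c11, the male-specific hepatic cytochrome P450, had -3.11, 0.92 and 3.48 in the isoflurane rats and -0.42, 2.25 and 1.84 in the CO2-O2 rats. Cryga, a lens gamma crystallin, had 3.75, 3.40 and -0.47 in the isoflurane rats and 3.48, 3.62 and 0.53 in the CO2-O2 rats. Its relative Crygd had 1.29, 1.10 and -2.72 in the isoflurane rats and 1.07, 1.27 and -1.84 in the CO2-O2 rats, so both were low in isoflurane rat 3 and CO2-O2 rat 3. A second Crygd probe ranged over only 0.220 log2 units across the 6 rats, so the probes of that gene disagree, and whether the Cryga and Crygd probes bind a shared transcript was not tested. Ubd, a ubiquitin-like protein induced in inflammation, had -3.14, 1.25 and 0.76 in the isoflurane rats and 1.57, 2.62 and 1.40 in the CO2-O2 rats. No rat was the low one for all 8 genes.

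**Figure D5:**
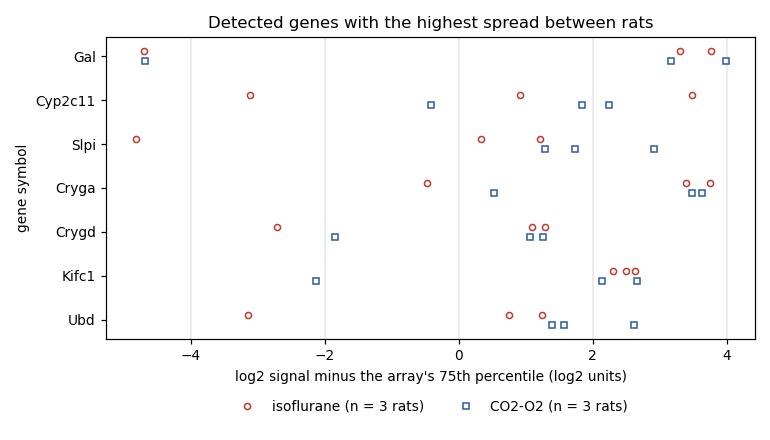
Signal in each vehicle rat of 7 of the 8 genes with the highest SD between rats under the same agent and a mean above 0 (log2 processed signal minus the array's 75th percentile; circles, isoflurane rats; squares, CO2-O2 rats; 3 each). Gal lies near 3 to 4 in 4 rats and near -4.7 in 2, and Kifc1 lies between 2.1 and 2.7 in 5 rats and at -2.12 in 1.

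The anesthetic is the only factor by which the labels divide the vehicle rats, and clock genes and transporters were among those that differed. In the limma fit to all 12 arrays, 34 of 31316 named genes and unnamed probes (0.109%) passed an adjusted p of 0.05, of which 19 were higher under isoflurane (0.0607% of those tested) and 15 lower (0.0479%); 19 of the 34 had a symbol. The 3 vehicle isoflurane arrays lay on 1 slide and scan day and the 3 CO2-O2 arrays on another, so that agent, slide and scan day cannot be told apart within these rats. Bmal1, a core activator of the circadian clock, fell under isoflurane, with -2.68, -3.03 and -2.44 in the isoflurane rats and -0.54, -0.53 and 0.22 in the CO2-O2 rats, a difference of -2.44 ± 0.30 (SE; adjusted p = 0.0315). Per3, a clock repressor, rose by 0.60 ± 0.08 (SE; adjusted p = 0.0358). With the slide as a random block neither passed, with adjusted p-values of 0.0576 for Bmal1 and 0.0762 for Per3. They passed in 10 and 8 of the 23 alternatives. Of the 15 clock genes tested, 11 were higher and 4 lower, 1 passed each way, and the median difference was 0.59, against 0.0089 over all features tested. Dbp, a clock output factor and the clock gene of highest signal, had 6.49, 6.58 and 6.47 in the isoflurane rats and 5.57, 5.75 and 4.91 in the CO2-O2 rats, which did not overlap, with an adjusted p of 0.159. The hour of kill is not given in the sources used here, and its part in these values was not tested.

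Other genes that passed were spread over functions. Slc34a2, a phosphate carrier, had -4.88, -4.73 and -4.52 in the isoflurane rats and -2.82, -2.98 and -2.90 in the CO2-O2 rats, a difference of -1.81 ± 0.17 (SE; adjusted p = 0.0176). Tnfrsf11b, the decoy receptor osteoprotegerin, fell by 2.40 and Jag1, a Notch ligand, fell by 0.86. Abhd16a, a phospholipid hydrolase, rose by 1.11, Sik1, a salt-inducible kinase, by 0.87, and Shbg, sex hormone-binding globulin, by 0.80, with adjusted p-values of 0.0343 to 0.0470 over the 5. With the slide as a random block Slc34a2 passed (adjusted p = 0.0378), and Tnfrsf11b, Jag1, Abhd16a, Sik1 and Shbg did not (0.0754 to 0.0881). Each vehicle group lay on 1 slide, so this block cannot separate the agent from the slide. Slc34a2 passed in 14 of the 23 alternatives, with differences of -2.01 to -0.995. Its isoflurane values lay within the range of the 10% of detected genes with the lowest signal (-5.52 to -3.43), where rats varied most. Of the 42 lists with a tested member, no other held a gene that passed. Among these lists, where 5 or more genes were tested, the lowest medians were those of fibroblasts (5 of 5 genes lower under isoflurane, median -0.43), the renin-angiotensin and peptidase list (8 of 9 lower, -0.41) and the S3 segment (8 of 10 lower, -0.36). The highest were those of hepatocytes (5 of 7 higher, 0.30), the distal convoluted tubule (4 of 6 higher, 0.21) and intercalated cells (11 of 12 higher, 0.18). Of all 31316 features tested, 16229 were higher and 15087 lower. The lists named are the extremes of many short lists measured on the same arrays, and a shared change of their genes was not tested. Of all features tested, 29.4% had groups that did not overlap, so the gaps given above for Slc7a13 (difference -1.30 ± 0.48 SE, adjusted p = 0.200), Khk (adjusted p = 0.145), Mme (adjusted p = 0.261), Ace (adjusted p = 0.136), Slc38a3 (adjusted p = 0.149), Slc22a2 (adjusted p = 0.238) and Hba-a1 (adjusted p = 0.140) are common in these data. Pck1 had an adjusted p of 0.131, Per1, a light-responsive clock gene, one of 0.273, and the stress-responsive Fos, Egr1, Atf3 and Vegfa ones of 0.504, 0.703, 0.572 and 0.908. The 4 red cell genes were all lower under isoflurane, with none past the threshold and a list median of 6.93, 7.09 and 6.75 in the isoflurane rats and 7.38, 7.46 and 7.49 in the CO2-O2 rats, and its part in the calls was not tested. The calls depended on single rats: 0 features passed without vehicle CO2-O2 rat 3, vehicle isoflurane rat 2 or tert-butyl alcohol isoflurane rat 3, 1 and 2 without vehicle CO2-O2 rats 1 and 2, 15 and 10 without vehicle isoflurane rats 1 and 3, 4 without tert-butyl alcohol isoflurane rat 2, and 18 and 99 without tert-butyl alcohol CO2-O2 rats 1 and 3. With the 6 vehicle arrays alone, 1 feature passed, a symbol lower under isoflurane.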

How the data were processed

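Cortical RNA (0.2 ug) of each rat was labelled with Cy3 and hybridised to 1 Agilent rat array, per the labels' protocols. The deposited scanner files hold a processed intensity per spot, background-subtracted and detrended by version 10.7.1.1 of Agilent's Feature Extraction software, as the file headers of the deposited arrays give it (10.7 in the submitters' processing notes). The authors' deposited series table is a ratio of that signal to the array's 75th percentile, as its values show; its columns matched arrays of the right group but of a different replicate number, and it served only as an alternative. All its columns were used (0 left out).

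The values here are log2 processed signal minus the array's 75th percentile over 61657 non-control probes, without spots carrying an outlier flag. Of these probes, 27460 have 1 gene symbol, 0 several and 34197 none. Over the 6 vehicle arrays 62.3% to 71.0% of probes were well above background, 0 spots were saturated and 29 carried an outlier flag. The number of arrays limits the precision. A gene takes its brightest probe that was well above background on all 6 arrays. Members and gene lists (529 symbols, 482 matched, 448 detected) were chosen with earlier results of these data known, so lists are described without a test. Genes named are the 20 highest; of each list the 4 highest, the 2 lowest and those above background in no rat; the 8 of highest SD; up to 8 called either way for the anesthetic; and Pck1, Per1, Vegfa, Fos, Atf3 and Egr1. Space left some of these out, and some genes that the rule names are not reported here.

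The anesthetic was tested with limma 3.58.1 (R 4.3.3; lmFit, eBayes, 1 mean per group over all 12 arrays, 8 residual degrees of freedom, Benjamini-Hochberg adjustment), on features above background on all 3 arrays of either vehicle group. Nothing in the labels says more of how rats were kept apart than that they are separate animals. The p-values set a difference against the spread between rats within groups, pooled over all 4 groups. They do not measure a difference between slides or scan days, with which the agent is aligned in the vehicle rats. On simulated data with 200 changed features the fit recovered 36.6%, 71.7% and 90.4% of changes of 0.5, 1 and 2 log2 units. It called a mean of 142.4 features, 7.2 of them false. The simulated noise was independent between features and held no slide or scan-day effect, so these shares do not carry over to the real contrast. Tables and plots were made with pandas 2.3.3 and matplotlib 3.10.9 in Python 3.11.15. Alternatives were normexp (offset 50), quantile and median scaling, the series table, other filters and probe rules, the slide and replicate number as blocks, and each array left out.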

Additional observations from a re-analysis of the deposited data

Results flagged for a closer look

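Of 149 genes and list medians looked at over the 6 vehicle rats, 14 had 1 rat apart from the other 5 by Dixon's criterion, which chance meets in about 1 of 20 such groups. The genes looked at include 7 chosen for their high SD between rats, among them Slpi, Kifc1 and Ubd, so the count cannot be read against that share. The rats concerned were isoflurane rats 1, 2 and 3 for 3, 3 and 1 of them and CO2-O2 rats 1, 2 and 3 for 2, 3 and 2. Isoflurane rat 1 was low for Umod (8.45), Ppia (8.43) and Ubd (-3.14). Isoflurane rat 2 was low for Slpi (-4.81) and high for Hsd11b2 (5.90) and Atp1b1 (8.54). Isoflurane rat 3 was low for Spp1 (2.01). CO2-O2 rat 1 was low for Atp6v1g3 (5.99) and Slc26a4 (5.22). CO2-O2 rat 2 was low for Lcn2 (-4.97), Idh2 (7.22) and Kifc1 (-2.12). CO2-O2 rat 3 was high for Hmox1 (-0.43) and low for Havcr1 (-5.39). Kifc1 and Slpi had further probes that were lowest in the same rat, and Ubd, Lcn2, Hmox1, Havcr1 and Spp1 had 1 detected probe each.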

How the results depend on the processing

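Under the alternatives 11173 to 15284 genes were ranked, and 18 to 23 lists had a median above percentile 75 (20 in the ranking reported). With the dimmest detected probe of each gene, chosen after seeing the data, 56 of the 100 highest genes were shared with the ranking reported. Over all alternatives 672 list medians were recomputed, and 523 moved by less than the spread between rats and 149 by more. Some alternatives leave out 1 rat and share the other arrays, so part of this agreement is built in. The largest move on leaving out 1 rat was 45.8 percentile points, in the list of macula densa and juxtaglomerular cells, which had few detected markers. The count of features called for the anesthetic was the least stable value: against 34, it was 989 with normexp, 94 with quantile and 54 with median scaling, 52 with detection on all 6 arrays, 20 with the mean of probes, 1 with the 6 vehicle arrays alone, 3 with the slide as a random block, and 0 with no filter (5937 at an unadjusted p under 0.05). Leaving out single rats gave 0 to 99. With the replicate number as a block 0 features passed (5669 unadjusted). Same-numbered vehicle samples did not deviate together (r of -0.028, 0.023 and 0.018). The labels do not say what a shared number stands for, and these values cannot settle it. With the slide as a fixed term, which rests on the 1 tert-butyl alcohol array of slide 1, 25 passed. The sign of some uncalled genes turned: Fos with normexp (-0.0406), Egr1 with slide fixed (0.306), Atf3 with slide fixed (0.0655) and Vegfa with quantile scaling (0.0295), the mean of probes (0.0518) and slide fixed (0.0637). Leaving out single rats gave -0.350 to 0.0724 for Egr1 and -0.0915 to 0.0437 for Vegfa. The cause of these changes was not tested. Signal over background limits the lowest signals, where rats varied most.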

Other observations

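Of the 100 named genes of highest signal, 54 were in no list, and the following were chosen after their values were seen. Mt2A, a metallothionein like Mt1, averaged 8.18 ± 0.04 (SD, n = 6 rats). Hao2, a peroxisomal hydroxy acid oxidase, averaged 7.74 ± 0.09, Acsm2, a medium-chain acyl-CoA synthetase, 7.63 ± 0.12, and Ddah1, which breaks down methylated arginine, 7.84 ± 0.06. Napsa, an aspartic protease of proximal tubule lysosomes, averaged 7.74 ± 0.08 and Cltrn, collectrin, which brings amino acid carriers to the brush border, 7.49 ± 0.06. Acy3, an aminoacylase that deacetylates mercapturic acids, had 7.75, 7.56 and 7.54 in the isoflurane rats and 8.14, 8.05 and 8.01 in the CO2-O2 rats, which did not overlap. Spp2, a secreted phosphoprotein, had 8.09, 7.78 and 7.17 in the isoflurane rats and 7.73, 7.79 and 7.40 in the CO2-O2 rats, the widest range of these 8 genes.

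The cell cycle list had a median at percentile 55.0 over 7 detected genes. Cdkn1a, the inhibitor p21, averaged 4.76 ± 0.09, and Ccnb1, the mitotic cyclin B1, -1.92 ± 0.40. Ccnd1, cyclin D1 of the G1 phase, had 4.08, 4.61 and 4.17 in the isoflurane rats and 3.56, 3.54 and 3.25 in the CO2-O2 rats. Among immediate early genes Junb (3.07 ± 0.20), Jun (2.92 ± 0.08) and Ier2 (2.48 ± 0.16) had the highest signal and Fos (-4.53 ± 0.28) the lowest. Of secreted factors beside Kap, Igfbp3, which binds insulin-like growth factors, averaged 6.05 ± 0.35 and Bmp7 3.74 ± 0.15.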
